A study of Rattus norvegicus with 16 samples.

Results

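The cytosolic ribosomal protein genes of the rat left ventricle were the genes whose probe set carried a single symbol beginning with Rpl or Rps followed by a digit, by p and a digit, or by a (Rpl3, Rplp0, Rpsa). Rps6k kinase genes and symbols beginning with LOC were left out. The rule found 57 of the 31042 tested probe sets, standing for 50 of 14217 named genes, 34 of the large subunit (Rpl) and 16 of the small subunit (Rps). All genes were counted through their probe set of highest mean. Another 36 probe sets carry several symbols, 1 of which fits the rule, and are not members. Rplp1, Rplp2, Rpl10, Rpl17, Rpl32, Rps2, Rps4x, Rps18, Rps19, Rps26 and Rps27a are not among the members. Left ventricle RNA of 16 female rats, 7 months old, was hybridized to Affymetrix rat expression arrays, with a separate array for each animal. The animals belonged to generation 16 of selection on treadmill running capacity, tested near 11 weeks of age, in lines that descend from N:NIH rats. The groups were HCR trained, HCR sedentary, LCR trained and LCR sedentary (HCR, high capacity runner; LCR, low capacity runner; 4 rats each). Training was interval running on a treadmill inclined by 25 degrees, 5 days per week for 8 weeks, with 8 min bouts at 85 to 90% of maximal oxygen uptake and 2 min bouts at 50 to 60% over 1.5 h. The sedentary rats were of the same age. Each line is a single selected population, so a line difference cannot be told apart from chance differences between the populations.

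Cytosolic ribosomes translate nearly all cellular mRNAs outside the mitochondria, and each ribosome is built from ribosomal RNAs and a full set of ribosomal proteins. Many ribosomal protein mRNAs begin with a terminal oligopyrimidine tract, a C at the cap followed by a run of C and T, through which mTORC1 and Larp1 control their translation. Heart and skeletal muscle carry a paralog of Rpl3, Rpl3l, whose protein can take the place of Rpl3 near the peptidyl transferase centre.

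The annotated starts of the members were searched for that tract. Of the 50 members, 43 had an entry in the RefSeq promoter table (GRCr8), and 12 of these (27.91%) had a C at the first listed start followed by at least 4 pyrimidines. Of all 11734 genes on the array with an entry 311 (2.65%) had it, and of the 27457 genes with an entry altogether, 722 (2.63%). Only the strand of the gene was read, and a start annotated a few bases away from the true cap hides a tract. In Rpl27a, Rps23 and Rps24 a run of pyrimidines spans the annotated base, which is a T, so none was counted. The search therefore does not settle which members carry the tract. The 6 windows below show 4 named members with the tract and the Rpl3 pair, which has none at the first listed start. For Rpl3, on the minus strand, that start lies inside the gene, which reaches to position 113508115. Each window has 15 bases before the start and 15 from it on, 5′ to 3′ on the strand of the gene, with the tract in capitals.
Rplp0, chr12:46718376-46718405, minus strand: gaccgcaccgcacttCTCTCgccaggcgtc
Rpl19, chr10:83519049-83519078, plus strand: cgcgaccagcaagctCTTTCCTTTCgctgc
Rpl22, chr5:168117946-168117975, plus strand: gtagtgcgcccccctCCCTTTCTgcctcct
Rpl35a, chr11:81235007-81235036, minus strand: gcgggtcttgccttcCTCTTTCCgccatct
Rpl3, chr7:113507976-113508005, minus strand: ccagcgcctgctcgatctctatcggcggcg
Rpl3l, chr10:14258431-14258460, plus strand: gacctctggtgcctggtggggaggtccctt

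Deposited values were expression values on a log scale, taken as log2. Array normalization makes every value relative to the rest of its array, so a change in the total amount of ribosomal mRNA per cell together with other mRNA would not appear, and fewer cells of a type and less RNA per cell cannot be told apart. Of the 50 members, 39 lay at or above the 90th percentile of all probe set means (8.75), 3 between that and the median (5.90), and 8 below the median. The 8 dim ones were Rpl26l1, Rpl28, Rpl30, Rpl39l1, Rps13, Rps27l and the pseudogenes Rpl37-ps2 and Rps4x-ps1. Cardiomyocyte identity was checked on 12 markers, whose mean level lay between 13.57 and 13.72 in every rat. Of the atrial markers, Myl7 ran from 5.14 to 8.83, Myl4 from 6.78 to 9.37, Sln from 5.58 to 6.41 and Nppa from 10.31 to 12.78. Nppa was called higher in HCR averaged over training (1.01 ± 0.22, limma adjusted p = 0.0217), beside 3.84% of all probe sets. Whether atrial tissue was present in some samples was not tested. HCR sedentary rat 5 stood apart, with Xist between 3.76 and 4.94 on 4 probe sets, against 7.56 to 10.34 in the other 15 rats, although the label says female. The Y-linked Eif2s3y lay between 3.33 and 3.53 in all rats. The interquartile range of log2 values within an array was 1.97 to 2.10 in HCR sedentary rats and 2.14 to 2.21 in LCR sedentary rats, so values are spread less widely on the HCR sedentary arrays.

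No cytosolic ribosomal protein gene differed between the lines or with training at an adjusted p of 0.05 or less in any of 7 comparisons, nor did any of the 57 probe sets (limma, Benjamini-Hochberg over all probe sets). Small line differences pointed mostly one way: averaged over training, 43 of 50 genes were lower in HCR, with a median log2 difference of -0.048 and a range from -0.21 to 0.096. Most bright probe sets of the array were lower in HCR as well, 76.23% of those at or above the 90th percentile of mean, with a median of -0.062. With training, averaged over the lines, 24 genes were higher and 26 lower, with a median of -0.0017.

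In sedentary rats 36 of 50 genes lay lower in HCR than in LCR, with a median of -0.042. The share of all probe sets called there was 4.99%, and 27.7% had an unadjusted p under 0.05, against 1 of 50 members (Rps4y2). The lowest adjusted p of a member was 0.119. Of all 14217 genes 53.64% were lower, with a median of -0.018, while of the 3105 probe sets at or above the 90th percentile 81.2% were lower, with a median of -0.10. The 39 bright members had a median of -0.041. That median lay nearer to 0 than the median of bright probe sets at large, a description for which no test was run. The groups did not overlap for 2 members, Rps4y2 and Rpl7l1, both lower in HCR, beside 18.3% of all probe sets. Both the median and its split lean on single rats and on the scaling. Without HCR sedentary rat 5 the median was -0.013 and 29 genes were lower. The median was -0.014 without LCR sedentary rat 2 and -0.022 without LCR sedentary rat 5. After quantile normalization of the probe set values 27 of 50 were lower, and after centring each array on its median 48 of 50.

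In trained rats 41 of 50 genes lay lower in HCR, with a median of -0.066 and a range from -0.18 to 0.23. No member was called, beside 0.0966% of all probe sets, and 5 members had an unadjusted p under 0.05, all lower in HCR, beside 7.33%. No member was without overlap between the groups, beside 3.14%. Without LCR trained rat 1, in which many of the genes were highest, the median was -0.043. All genes had a median of -0.0034, with 51.4% lower. The probe sets at or above the 90th percentile had a median of -0.024, with 59.45% lower, and the 39 bright members one of -0.073. The difference between these medians was not tested.

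Averaged over training, 5 members had an unadjusted p under 0.05, all lower in HCR, while the share over all probe sets was 24.1%; 3.84% of all probe sets were called. Over all genes 52.15% were lower, and over the bright probe sets the 76.23% given above, beside 36 of the 39 bright members, whose median was -0.051. The split of 43 lower became 37 of 50 after quantile normalization and 49 of 50 after centring. The 34 large subunit genes had a median of -0.045 and the 16 small subunit genes -0.053. Members with the tract at the annotated start (12) had a median of -0.056 and the 31 members without it there -0.049. The second set can hold members whose tract the annotation hides. The estimates were narrow: the 95% interval lay within 1.25-fold in either direction for 49 of 50 genes and within 1.15-fold for 39. Of all genes 85.76% had an interval within 1.25-fold.

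**Figure D1:**
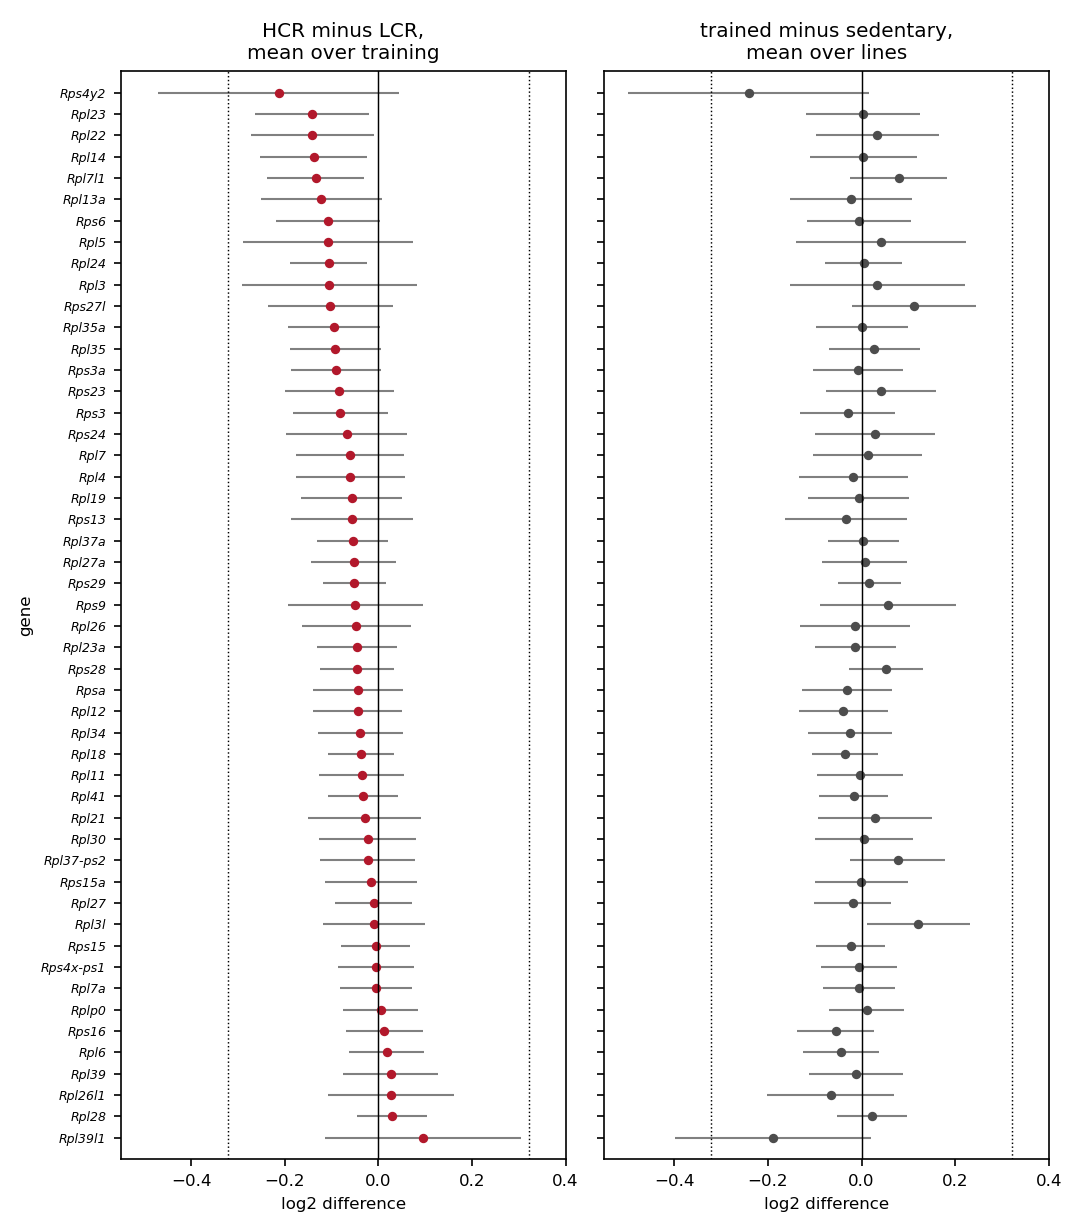
Log2 difference of each of the 50 genes with its 95% interval (limma, 4 rats per group), HCR minus LCR averaged over training at left and trained minus sedentary averaged over lines at right, in the order of the line difference. Dotted lines mark 1.25-fold; 43 points lie below 0 at left and 26 at right, and only the interval of Rps4y2 at left and those of Rps4y2 and Rpl39l1 at right pass a dotted line.

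By their brightest probe sets, the genes with the lowest p for the line average were of the large subunit or related to it. Rpl24, whose protein forms a bridge to the small subunit, read 11.66, 11.73, 11.58 and 11.62 in HCR trained and 11.78, 11.69, 11.54 and 11.72 in HCR sedentary rats. It read 11.81, 11.72, 11.84 and 11.80 in LCR trained and 11.72, 11.77, 11.74 and 11.76 in LCR sedentary rats. Most HCR rats lay below the LCR rats, with overlap in both training states. The difference averaged -0.11 ± 0.039 (SE; limma adjusted p = 0.115, 0.0607 to 0.345 over its alternatives).

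Rpl7l1, a paralog of Rpl7 that takes part in ribosome assembly, read 8.31, 8.19, 8.27 and 8.14 in HCR trained and 8.23, 8.23, 8.05 and 8.23 in HCR sedentary rats. Its LCR values were 8.35, 8.22, 8.47 and 8.56 in trained and 8.25, 8.32, 8.28 and 8.29 in sedentary rats. In sedentary rats all 4 HCR values lay below all 4 LCR values. The line average was -0.13 ± 0.049 (limma adjusted p = 0.114), and it passed the threshold when LCR trained rat 2 was left out (-0.16, adjusted p = 0.0386; 0.0386 to 0.456 over all alternatives). A second probe set of the gene differed by -0.098.

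Rpl14, Rpl23 and Rpl22 are large subunit genes too, and the protein of Rpl23 also binds Mdm2. Their line averages were -0.14 each, with limma adjusted p of 0.136 for Rpl14, 0.148 for Rpl23 and 0.175 for Rpl22. A dim second probe set of Rpl14 went the other way, by 0.069 in the line average and by 0.18 ± 0.066 in sedentary rats (limma adjusted p = 0.106). Its sedentary groups did not overlap, beside 18.3% of all probe sets. Rpl5 and Rpl11 encode the proteins that hold the 5S ribosomal RNA and that bind Mdm2 when ribosome assembly fails. Rpl5 differed by -0.11 ± 0.086 and Rpl11 by -0.036 ± 0.043. The genes of the nascent chain exit, Rpl19, Rpl23a and Rpl35, differed by -0.057, -0.046 and -0.092, all short of the threshold (limma adjusted p from 0.232 to 0.508). Rpl35a, mutated in some human cases of Diamond-Blackfan anaemia, differed by -0.095.

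On the small subunit, Rps6 encodes the phosphorylation target of the S6 kinases. It read 12.46, 12.29, 12.35 and 12.15 in HCR trained rats, against 12.58, 12.33, 12.52 and 12.46 in LCR trained rats. In sedentary rats it read 12.41, 12.41, 12.25 and 12.41 in HCR and 12.55, 12.35, 12.47 and 12.33 in LCR. The lines overlapped in both training states, and the average was -0.11 ± 0.052 (limma adjusted p = 0.221). Rps3 of the mRNA entry channel differed by -0.082, Rps23 of the decoding centre by -0.083, Rps24 by -0.068 and Rpsa, also known as the laminin receptor, by -0.044. Other Rpsa probe sets, of classes that may match several transcripts, differed by -0.14 ± 0.051 (limma adjusted p = 0.112, the lowest of all 57 probe sets) and by 0.020.

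Rplp0 of the ribosomal stalk and Rpl13a are often used as reference genes in quantitative PCR. Rplp0 lay between 12.37 and 12.56 in the 16 rats, with a line average of 0.0048 (95% interval -0.076 to 0.085) and a training average of 0.011 (-0.070 to 0.091). Both intervals lay within 1.15-fold in either direction. Rpl13a lay between 11.43 and 11.92, with a line average of -0.12 (95% interval -0.25 to 0.0076, limma adjusted p = 0.234) and a training average of -0.022.

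**Figure D2:**
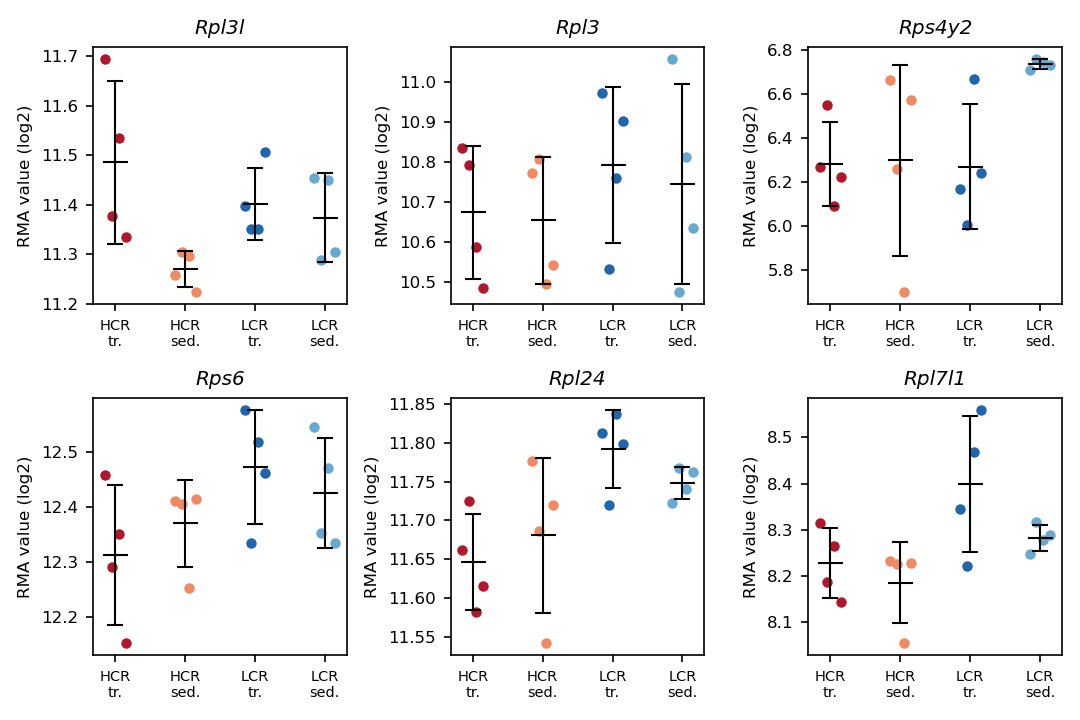
Deposited RMA values (log2) of 6 genes in every rat, by group from left to right HCR trained, HCR sedentary, LCR trained and LCR sedentary (tr., trained; sed., sedentary); points are rats and bars the mean and SD of 4. Each panel has its own axis, which does not start at 0. Rpl3l is separated between trained and sedentary rats in HCR but not in LCR, and Rps4y2 has all 4 LCR sedentary rats within 6.71 to 6.76.

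In HCR rats training left 15 genes higher and 35 lower, with a median of -0.029. No probe set at all was called (0%), and 13.9% had an unadjusted p under 0.05, against 1 member, Rpl3l. All genes had a median of 0.0059, and the probe sets at or above the 90th percentile had one of 0.064, with 23.61% lower. The 39 bright members had a median of -0.030, below 0 where bright probe sets at large lay above it; the difference between these medians was not tested. After centring each array, 17 of 50 members were lower, with a median of 0.0078, and after quantile normalization 35. Without HCR trained rat 6 the median was 0.0017, without HCR sedentary rat 5 it was -0.054 with 44 lower, and without HCR sedentary rat 3 or rat 4 it was -0.0058 and -0.010. It was -0.019 without HCR trained rat 5.

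In LCR rats 34 genes were higher and 16 lower in trained animals, with a median of 0.020. With the rat number as a block the median was -0.049, and 38 of 50 genes were lower. Of all genes 48.03% were higher without the block, with a median of -0.0045. Of the probe sets at or above the 90th percentile 45.76% were, with a median of -0.011. No member was called, beside 0.00322% of all probe sets, and 2 members had an unadjusted p under 0.05, Rps4y2 and Rpl39l1, both lower, beside 5.57%. The sign of the members' median changed, to -0.0033 without LCR trained rat 1 and to -0.0003 without LCR sedentary rat 3. It was 0.046 without LCR trained rat 2, 0.042 without LCR sedentary rat 2, 0.037 without LCR sedentary rat 5, 0.011 without LCR trained rat 4 and 0.0044 without LCR sedentary rat 6.

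Averaged over the lines, 1 member had an unadjusted p under 0.05 (Rpl3l), while 9.24% of all probe sets did; 0.00644% of all probe sets were called. The 95% interval lay within 1.25-fold for 48 of 50 genes and within 1.15-fold for 44. The split of 26 lower was 18 after centring, 29 after quantile normalization and 41 with the rat number as a block. The training response differed between the lines for no member, and for no probe set of the array (0% called). An unadjusted p under 0.05 was reached by 9.88% of all probe sets and by 0 members. The median of HCR response minus LCR response was -0.039, with 42 of 50 genes below 0, but after centring 22 were below 0, with a median of 0.0081. Of all genes 47.11% were below 0. Of the probe sets at or above the 90th percentile 25.48% were, with a median of 0.074. Whether the members differ from these was not tested. For 38 of 50 genes the interval of the difference between the 2 responses lay within 1.25-fold, against 39.9% of all genes. Comparisons that share a group, such as the line difference in sedentary rats and the training difference in HCR, are not independent.

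**Figure D3:**
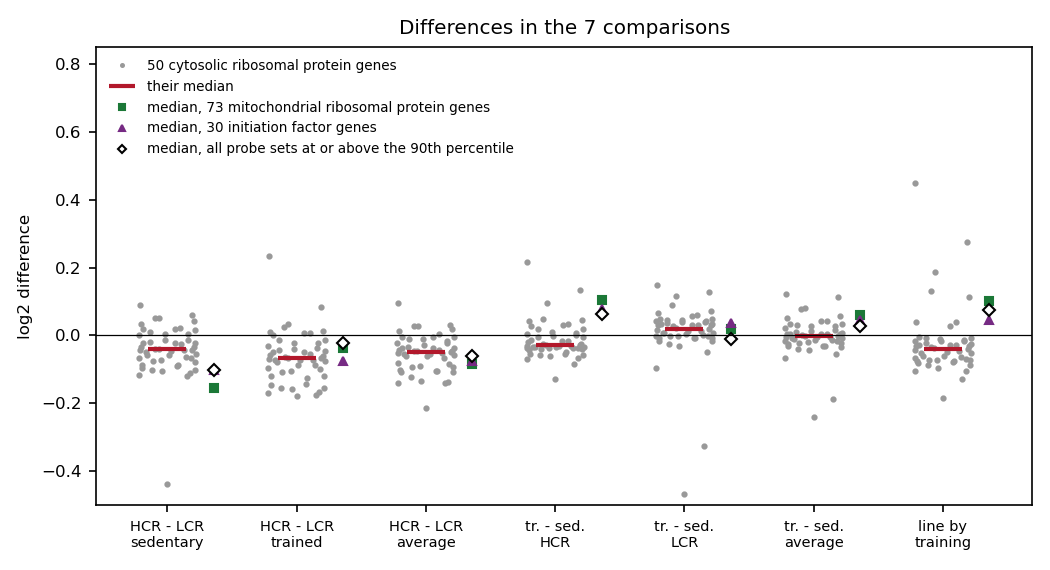
Log2 differences of the 50 genes (grey points) and their median (red line) in the 7 comparisons, with the medians of 73 mitochondrial ribosomal protein genes (squares), 30 initiation factor genes (triangles) and all probe sets at or above the 90th percentile of mean (diamonds). In sedentary rats the cytosolic median is -0.042 and the mitochondrial one -0.15, and in trained against sedentary HCR rats they are -0.029 and 0.10 (tr., trained; sed., sedentary; medians move with the scaling).

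Rpl3l read 11.70, 11.38, 11.54 and 11.33 in trained HCR rats, against 11.26, 11.30, 11.30 and 11.22 in sedentary HCR rats. All 4 trained rats were higher than all 4 sedentary ones. By brightest probe sets no other member lacked overlap in either direction, beside 8.00% of all probe sets. Of the further probe sets, a dim one of Rps24 was higher without overlap (5.36 to 5.56 trained, 4.97 to 5.31 sedentary). One of Rpsa was lower (9.88 to 9.90 trained, 9.95 to 10.03 sedentary). The Rpl3l difference was 0.22 ± 0.073, or 1.16-fold (95% interval 0.060 to 0.37 on the log2 scale, limma adjusted p = 0.255, 0.115 to 0.491 over its alternatives). Without trained rat 3, the highest, it was 0.15. In LCR rats it read 11.40, 11.35, 11.35 and 11.51 after training, against 11.45, 11.29, 11.45 and 11.30 without, a difference of 0.028 ± 0.073, and the groups overlapped. The difference between the lines in this response was 0.19 ± 0.10 (limma adjusted p = 0.557). In sedentary rats Rpl3l was -0.10 ± 0.073 (HCR minus LCR), and in trained rats 0.084 ± 0.073.

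Its paralog Rpl3 read 10.83, 10.79, 10.59 and 10.48 in trained and 10.77, 10.81, 10.49 and 10.54 in sedentary HCR rats. Values in LCR were 10.97, 10.53, 10.76 and 10.90 with training and 11.06, 10.47, 10.81 and 10.63 without. The groups overlapped, and training differed by 0.020 ± 0.12 in HCR and 0.047 ± 0.12 in LCR. The 95% interval in HCR, -0.24 to 0.28, holds both 0 and the difference measured for Rpl3l. A second, dimmer Rpl3 probe set, of a class that may cross-hybridize, differed by 0.027 in the line average, against -0.10 for the brighter one. Rpl3l lies on chromosome 10 (14258446 to 14268989) and Rpl3 on chromosome 7 (113491943 to 113508115) of GRCr8.

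Rps4y2, a paralog of the small subunit gene Rps4x that RefSeq places on chromosome 4 (183000913 to 183001846), had the widest spread within groups, 0.28 (SD). It read 6.27, 6.55, 6.09 and 6.22 in HCR trained and 6.66, 6.26, 5.70 and 6.57 in HCR sedentary rats. In LCR it read 6.17, 6.00, 6.67 and 6.24 with training and 6.71, 6.76, 6.74 and 6.73 without. The LCR sedentary rats were high and alike, and lay above every other rat of the study. HCR minus LCR in sedentary rats was -0.44 ± 0.17 (limma adjusted p = 0.119), and trained minus sedentary in LCR was -0.47 ± 0.17 (limma adjusted p = 0.766), with no overlap in either (beside 2.82% of all probe sets in the second). The first was -0.24 (adjusted p = 0.33) without HCR sedentary rat 5, and -0.56 without HCR sedentary rat 3. Over all alternatives its adjusted p ran from 0.0615 to 0.33, and that of the training difference from 0.552 to 1. Whether the probe set also takes up RNA of Rps4x was not tested.

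Among other members named by lowest p, Rpl39l1 was 4.95 in trained and 5.28 in sedentary LCR rats (-0.33 ± 0.14, limma adjusted p = 0.853), and differed by -0.21 without LCR sedentary rat 2. Rps27l, a paralog of Rps27, had the second lowest p among members higher with training (0.11 ± 0.063 averaged over lines, limma adjusted p = 0.605), and the pseudogene Rpl37-ps2 had the next lowest (0.077 ± 0.048, limma adjusted p = 0.635). Rpl6, Rpl26l1 and Rps16 had the lowest p among those lower with training in HCR, with differences of -0.085, -0.13 and -0.062. Rpl26l1 was at -0.079 without HCR sedentary rat 4. Rpl7l1, Rps9 and Rps27l led those higher with training in LCR, with 0.12, 0.15 and 0.13. Without LCR trained rat 4 Rpl7l1 was at 0.063 and Rps27l at 0.045, and without LCR sedentary rat 6 Rps9 was at 0.089. Among members below 0 in the interaction the lowest p were those of Rps9 (-0.19 ± 0.14), Rpl6 (-0.082 ± 0.076) and Rpl7a (-0.077 ± 0.074), and none was called (limma adjusted p from 0.641 to 0.725). Among members above 0 they were those of Rps4y2 (0.45 ± 0.24), Rpl3l (0.19 ± 0.10) and Rpl39l1 (0.28 ± 0.20), none called either (limma adjusted p from 0.551 to 0.633). Rpl6, Rpl28 and Rpl26l1 led those higher in sedentary HCR rats, by 0.059, 0.051 and 0.091, and Rpl35 (-0.11) and Rps13 (-0.12) were among the lower ones. Single rats moved these values: Rpl26l1 was at 0.013 without LCR sedentary rat 2, Rpl35 at -0.055 without HCR sedentary rat 5, and Rpl6 at 0.034 and Rpl28 at 0.031 without HCR sedentary rat 4. Rpl28 turned to -0.0070 when arrays were centred. Of the genes named here, Rpl26l1, Rpl28, Rpl39l1, Rps13, Rps27l and Rpl37-ps2 are dim, with means below the median of all probe sets.

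Although group means were close, the genes moved together from rat to rat. The mean deviation of the 50 genes from their own 16-rat means was 0.027, -0.0065, -0.053 and -0.099 in HCR trained rats 3 to 6, and 0.022, 0.039, -0.12 and -0.024 in HCR sedentary rats 3 to 6. It was 0.089, -0.060, 0.050 and 0.042 in LCR trained rats 1 to 4, and 0.088, -0.031, 0.060 and -0.025 in LCR sedentary rats 2, 3, 5 and 6. Every group thus held rats on both sides of 0. In LCR trained rat 1, 42 of 50 genes were above their mean, and 18 had their highest value of all 16 rats there. In HCR sedentary rat 5 only 5 were above their mean, and in HCR trained rat 6, 10 were, with 17 genes at their lowest value there. The mean of all bright probe sets followed the members in some rats and not in others, at -0.11 in HCR sedentary rat 5 but 0.0086 in LCR trained rat 1 and -0.094 in HCR sedentary rat 4.

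**Figure D4:**
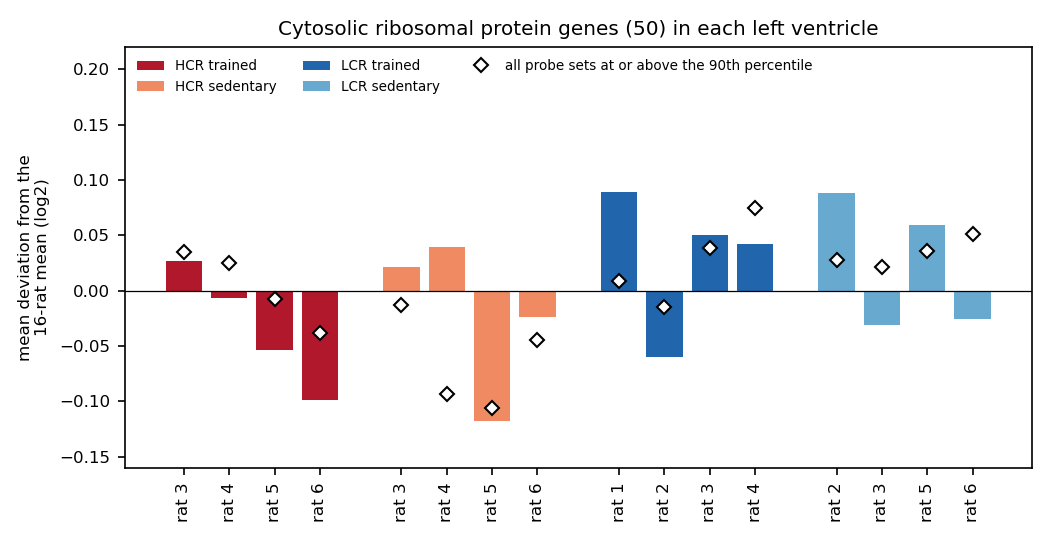
Mean deviation of the 50 genes from their 16-rat means in each rat (bars, log2), by group from left to right HCR trained, HCR sedentary, LCR trained and LCR sedentary, with the mean deviation of all probe sets at or above the 90th percentile (diamonds). Bars lie on both sides of 0 in every group, from -0.12 in HCR sedentary rat 5 to 0.089 in LCR trained rat 1.

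After the group means were taken out, the median correlation between 2 members was 0.620 among the 39 bright genes, and 90.6% of their 741 pairs were positive. Among all 3105 bright probe sets the median was 0.083, and among the 8 dim members -0.034. These correlations are over 16 arrays that share each rat's RNA and array, and are given as a description. The likeness was measured as the correlation of a gene with the mean of the other bright members. Rpl27a (0.975), Rpl22 (0.964), Rpl5 (0.953), Rps3a (0.950) and Rpl19 (0.950) followed that mean most closely. Rpl27 (-0.327), Rps29 (-0.129) and Rpl18 (0.202) followed it least among bright members, and Rpl3l lay at 0.560. Rpl27a, the most typical, read 12.64, 12.60, 12.53 and 12.48 in HCR trained rats and 12.60, 12.64, 12.46 and 12.55 in HCR sedentary rats. It read 12.70, 12.50, 12.66 and 12.63 in LCR trained rats and 12.69, 12.52, 12.64 and 12.58 in LCR sedentary rats.

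**Figure D5:**
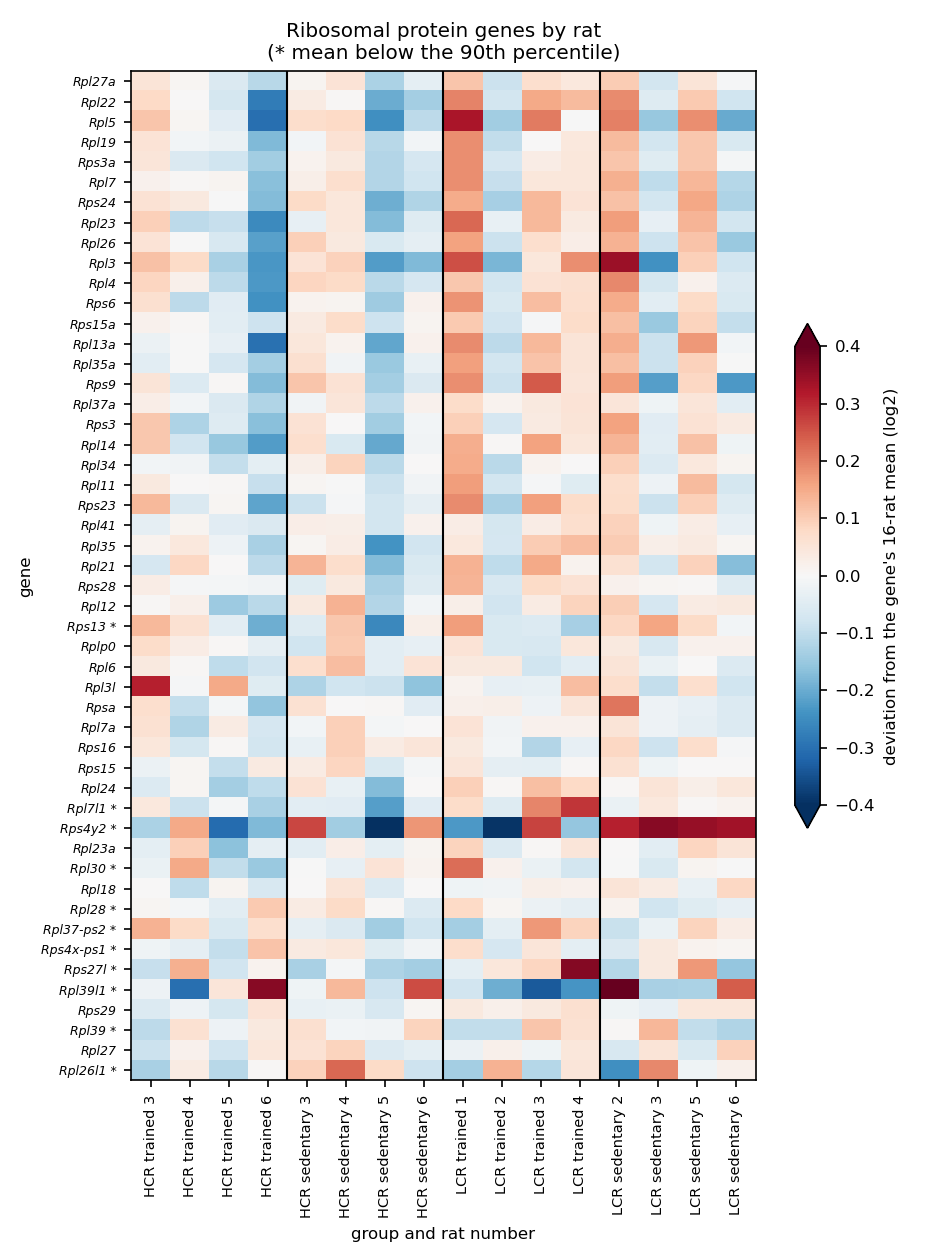
Deviation of each gene from its own 16-rat mean (log2, colour limited at 0.4) in every rat, with columns by group from left to right HCR trained, HCR sedentary, LCR trained and LCR sedentary, and rows ordered by the correlation with the mean of the other bright members. The upper rows share their colours down a column, blue in HCR trained rat 6 and HCR sedentary rat 5 and red in LCR trained rat 1, while the dim genes near the bottom do not.

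The spread within groups was smallest for Rps29 (0.038), Rpl18 (0.043) and Rps15 (0.050), and largest for Rps4y2 (0.28), Rpl39l1 (0.22) and Rpl3 (0.20). Its median was 0.086 for the bright members, 0.105 for all bright probe sets and 0.111 for all probe sets.

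For 6 genes several probe sets were measured, and those disagreed in places, as given above for Rpl14, Rpsa and Rpl3. For Rps24, mutated in some human cases of Diamond-Blackfan anaemia, the bright probe set (of a class that may match several transcripts) and a dim one differed by 0.471 in the line by training interaction, with opposite signs. In sedentary rats the dim one read 5.15, 5.31, 4.97 and 5.27 in HCR and 5.39, 5.57, 5.40 and 5.60 in LCR. These did not overlap, as for 18.3% of all probe sets, and the difference was not called (limma adjusted p = 0.0747). The 36 probe sets with several symbols had 32 lower and 4 higher in the line average, with a median of -0.047. Of these, 1 was called, lower in HCR, both in sedentary rats (limma adjusted p = 0.015) and in the average (limma adjusted p = 0.0311). The shares of all probe sets called were 4.99% and 3.84%. Which gene the called probe set stands for is not known from its label.

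The remaining translation genes were taken from lists of initiation and elongation factors, assembly factors, polymerases and mTORC1 genes. Of 30 initiation factor genes 29 were lower in sedentary HCR than in sedentary LCR rats, with a median of -0.10 and 0 called. Of 8 elongation factor genes 7 were lower, with a median of -0.084 and 0 called. The 46 ribosome assembly genes had 35 lower, a median of -0.092 and 0 called. The medians of these lists lay near that of all bright probe sets (-0.10). Of 13 other mRNAs with a terminal oligopyrimidine tract 11 were lower, with a median of -0.053 and 0 called.

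Among 25 genes of RNA polymerase I and III, which make the ribosomal and transfer RNAs, 21 were lower in sedentary HCR rats and 2 were called, beside 4.99% of all probe sets. These were Polr1d, a subunit of both polymerases (-0.30 ± 0.071, limma adjusted p = 0.0328), and Gtf3c2, a subunit of transcription factor TFIIIC (-0.29 ± 0.073, limma adjusted p = 0.0398). In the line average Polr1d (-0.22), Polr1b (-0.32) and Ubtf (-0.22), the nucleolar factor of ribosomal RNA transcription, were called, beside 3.84% of all probe sets. In trained rats 14 of the 25 were higher in HCR, with a median of 0.022 and 0 called. Of 18 genes of mTORC1 and the S6 kinases 14 were lower in sedentary HCR rats, and 1 was called, Ddit4, an inhibitor of mTORC1 (-0.85 ± 0.16, limma adjusted p = 0.0201). Mtor itself differed by -0.22 ± 0.070 (adjusted p = 0.066) and Rps6kb1, an S6 kinase gene, by -0.27 ± 0.090 (adjusted p = 0.0781) in sedentary rats. In trained rats Mtor differed by 0.035 and Rps6kb1 by 0.0070, and 10 of the 18 genes were higher in HCR. Of 73 mitochondrial ribosomal protein genes 69 were lower and 7 called, with a median of -0.15, and in trained against sedentary HCR rats 70 were higher, with a median of 0.10 and 0 called. Whether the cytosolic genes differ from these lists was not tested.

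Of the markers of other cells, some genes were called between sedentary HCR and LCR rats, beside 4.99% of all probe sets. Of 11 fibroblast markers 8 were lower in sedentary HCR than in sedentary LCR rats, with a median of -0.22, and 1 of them was called (Lum). Their mean level ran from 9.23 to 9.43 in HCR and from 9.40 to 9.59 in LCR sedentary rats. Of 8 markers of smooth muscle and pericytes 7 were higher in sedentary HCR rats, 1 of them called (Acta2), and their mean level ran from 7.99 to 8.16 in HCR and from 7.88 to 8.09 in LCR. Of 10 macrophage markers 6 were lower, with a median of -0.050, and the 1 called (Aif1) was higher. Of 10 lymphocyte markers 6 were higher, with a median of 0.044, and the 1 called (Klrd1) was lower. Of 6 nerve and Schwann cell markers 4 were higher, with a median of 0.13. Chl1 was called higher (0.37 ± 0.064, limma adjusted p = 0.0139) and Ncam1 lower (-0.64 ± 0.18, limma adjusted p = 0.0497). No cardiomyocyte, atrial, endothelial, adipocyte or erythroid marker was called in sedentary rats. The part of other cell types in the ribosomal protein differences was not tested.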

How the data were processed

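The authors deposited RMA values, read here as log2, 1 per probe set and array; RMA and limma are named, with no version, in the submitters' processing notes. RMA corrects the background of perfect-match probes, quantile-normalizes the probes and summarises each probe set on a log scale. No source used here states which logarithm was taken. Log2 was chosen from the range, 3.24 to 14.54; folds depend on this choice, signs and tests do not. No scanner files or detection calls were used, so values near background could not be told from background.

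The 57 control probe sets among 31099 were dropped, which leaves 31042, all of them tested. Names came from the platform annotation supplied with the data: 20826 probe sets had 1 symbol, 436 several, and 9780 were not listed. Gene IDs of 48 of the 50 members were found in the RefSeq gene table (GRCr8), and sequences came from its promoter table.

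A limma model (version 3.58.1, R 4.3.3) was fitted to every probe set over all 16 arrays, with 1 mean per group and 12 residual degrees of freedom. Tests were two-sided, adjusted with the Benjamini-Hochberg method over 31042 probe sets, and called at 0.05. Values after ± are standard errors, and intervals are at 95%. Precision is limited by having only 4 arrays in a group. The step was tried on simulated data for the line average only, with changes of 1.25-fold and 1.5-fold and noise independent between probe sets. Smaller differences and genes that move together were not simulated. Groups and rat numbers came from the sample titles, so replicates are separate rats. Equal numbers in different groups were not treated as pairs in the main model.

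Members and lists were chosen with earlier results of these data known. Named genes were any called member, the 3 of lowest p per direction and comparison, preset genes by role, paralogs, genes whose probe sets disagree, and those of largest and smallest spread within groups; other genes with an unadjusted p under 0.05 and the genes of the correlation are named by rank. Alternatives were 2 other scalings, 2 filters on low values, the mean of a gene's probe sets, array weights, an intensity trend, the rat number as a block, only the groups compared, and leaving out each rat.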

Additional observations from a re-analysis of the deposited data

Results flagged for a closer look

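In 204 tests, each within a group of 4 rats, 10 values stood apart by their gap to the nearest other rat. Chance flags about 1 in 20. HCR sedentary rat 5 gave 4 of them, all low: Rps6 at 12.25 (others 12.41 to 12.41), Rpl13a at 11.53 (others 11.75 to 11.78), Rpl41 at 12.19 (others 12.28 to 12.29) and Rpl7l1 at 8.05 (others 8.23 to 8.23). This is the rat with low Xist and the narrowest array. HCR trained rat 6 was low for Rpl13a at 11.43 (others 11.70 to 11.73) and for Rpl7 at 12.26 (others 12.43 to 12.45). HCR sedentary rat 4 was high for Rpl7a at 13.11 (others 13.00 to 13.02) and for Rps27l at 5.47 (others 5.34 to 5.35). LCR sedentary rat 2 was high for Rpsa at 12.11 (others 11.84 to 11.87), and LCR sedentary rat 3 was low for Rpl30 at 5.25 (others 5.31 to 5.32). No member's training response differed between the lines by the interaction test.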

How the results depend on the processing

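No gene was called under any of 9 processing alternatives. Leaving out each of the 16 rats gave 0 to 1 called genes in the line average; the 1 was Rpl7l1, without LCR trained rat 2. The median of the 50 genes ran over left-out rats from -0.059 to -0.013 for the line difference in sedentary rats, -0.096 to -0.043 in trained rats and -0.064 to -0.035 in the average. It ran from -0.054 to 0.0017 for training in HCR, -0.0033 to 0.046 in LCR and -0.017 to 0.013 in the average, and from -0.071 to -0.019 for the interaction. With the rat number as a replicate block the median for training in LCR was -0.049 (38 of 50 lower), against 0.020 (16 lower) without the block, for the training average -0.034 (41 lower, against 26), for the interaction 0.011 and for the line difference in trained rats -0.012, and no member was called. Same-numbered rats of different groups correlated at -0.231 to 0.339, and rats of different numbers at -0.409 to 0.459. Whether rats of equal number shared a batch was not tested. After centring, 3 small differences turned sign: Rpl28 (-0.0070 in sedentary rats, -0.0052 in the average) and Rpl39 (-0.0083 in the average). Rpl37-ps2 in trained rats was -0.050 with the replicate block and ran from -0.019 to 0.085 over left-out rats. In these alternatives the cause was not tested. For named genes, 316 values from processing and 670 from left-out rats kept their direction and their side of the threshold. For the line difference in sedentary rats the array as a whole had 623 higher and 926 lower calls, against 224 and 319 after quantile normalization, 298 and 2162 after centring and 1353 and 1647 with the block. In the line average 450 and 741 were called, against 322 and 401 after quantile normalization. With the block 8 were called for training in HCR, against 0 without it.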
